A study of Mus musculus with 8 samples.

Results

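The genes described here are 10 mouse genes whose transcripts are widely used as readouts of the ERK branch of MAP kinase signalling: the phosphatase genes Dusp4, Dusp5 and Dusp6, the inhibitor genes Spry2, Spry4 and Spred1, the ETS factor genes Etv4 and Etv5, the AP-1 gene Fosl1, and Phlda1. They were taken by name, each matched to 1 Ensembl gene, out of 35275 genes in the table, and all 10 reached the mean of 1 FPKM needed for testing. They were selected on their differences between treatments and times in these same libraries. Their levels and differences are therefore given as a description, without a test. FPKM is a fragment number scaled by gene length and by library size.

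Myotubes, the multinucleated muscle cells that form in culture, came from C57BL6/J mice: their primary myogenic progenitors (MPCs) were differentiated in medium with horse serum. The treated groups received extracellular vesicles (EVs), membrane particles shed by cells, from proliferating primary MPCs, for 12 h or 24 h. The control groups received EVs prepared from growth media for the same times, so every library had a vesicle preparation and an untreated reference was not analysed here. Each of the 4 groups (control 12 h, MPC EV 12 h, control 24 h and MPC EV 24 h) had 2 libraries, 8 in all, and the labels do not say whether these came from separate cultures. Spread and p-values thus measure the variation between libraries, which may be technical.

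When a growth factor binds its receptor, RAS, RAF, MEK and ERK kinases are activated in turn, and ERK changes transcription. Some of the induced genes act back on the cascade. DUSP proteins remove phosphate from ERK, and Sprouty and SPRED proteins restrain signalling between the receptor and RAF. The ETS factors ETV4 and ETV5, the AP-1 subunit FRA-1 encoded by Fosl1, and PHLDA1 are further products of ERK-driven transcription. In muscle progenitors this pathway is known for its part in proliferation and in delaying differentiation.

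Promoter sequence from RefSeq (GRCm38.p6) was at hand for 5 of the 10 genes: Dusp5, Dusp6, Spry2, Spred1 and Etv5. The stretches upstream of Dusp5 and Dusp6 are shown because these phosphatase genes had the widest separation between treatments at both times. They run from 250 to 51 bases before the RefSeq start, 5′ to 3′ on the plus strand. Capitals mark the CArG box, the site bound by serum response factor.
Dusp5, chr19:53528895-53529094: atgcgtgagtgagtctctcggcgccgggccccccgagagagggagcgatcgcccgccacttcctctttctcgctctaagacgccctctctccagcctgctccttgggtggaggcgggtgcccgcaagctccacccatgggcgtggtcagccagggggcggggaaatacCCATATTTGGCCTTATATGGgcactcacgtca
Dusp6, chr10:99262981-99263180: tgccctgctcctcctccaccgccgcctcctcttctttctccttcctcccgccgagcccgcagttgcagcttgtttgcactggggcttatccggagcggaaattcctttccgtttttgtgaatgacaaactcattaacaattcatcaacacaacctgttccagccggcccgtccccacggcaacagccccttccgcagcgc

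Dusp5 carried 2 CArG boxes back to back and without overlap, CCATATTTGG from -82 to -73 and CCTTATATGG from -72 to -63 relative to its start. Over the 250 bases before the start, 482 of 32851 promoters in the RefSeq table (1.47%) held at least 1 CArG box on either strand, and 6 (0.0183%) held 2 or more. The ETS motif CCGGAA, found in 12.0% of all promoters, and the AP-1 motif TGANTCA, found in 6.75%, had no match in these windows of the 5 genes, both strands counted. These are letter matches in a short window and show neither binding nor its absence.

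The libraries held 16324184 to 20187736 fragments, as recovered from the FPKM steps, and each of the 10 genes was covered by 109 to 2577 fragments per library. Markers set for myotubes were abundant, with a summed level of 13470 to 21040 FPKM over 10 genes. All 6 endothelial markers stayed under 1 FPKM, as did 5 of 6 leukocyte markers and 5 of 8 fibroblast markers (Dcn, Lum, Thy1, Pi16 and Dpt). Summed over 8 genes, progenitor markers lay at 148.4 to 153.7 FPKM in control and 159.2 to 165.3 with MPC EVs at 12 h, and at 129.7 to 131.9 and 142.7 to 142.8 at 24 h. The sum over the 8 fibroblast markers, at 26.3 to 27.5 and 19.2 to 22.3 FPKM at 12 h and 31.6 to 33.6 and 25.8 to 26.4 at 24 h, was lower with MPC EVs. This does not hold for each of them. Pdgfra had means of 0.739 FPKM in control and 0.863 with MPC EVs at 12 h, and 0.821 and 1.05 at 24 h. Myotube markers at 24 h were at 13470 to 13750 in control and 16640 to 18450 with MPC EVs. The part of these shifts in the results below was not tested, and more cells of a type cannot be told apart from more RNA per cell in such samples. Control 12 h replicate 2 stood apart: its correlation with its partner across genes was 0.947, against 0.992 to 0.996 for the other groups. In it, 966 long transcripts low in GC had a median log2 deviation of -1.03.

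Dusp6 and Dusp5 were the members with the clearest separation between MPC EV and control myotubes, at both times. Dusp6 (ENSMUSG00000019960, chromosome 10, 99263231 to 99267489 in GRCm38/mm10) encodes MKP-3, a cytoplasmic phosphatase selective for ERK. It measured 5.40 and 6.45 FPKM in control and 16.0 and 16.6 with MPC EVs at 12 h, and 5.92 and 5.99 in control and 16.8 and 15.7 with MPC EVs at 24 h. The lowest MPC EV library was thus far above the highest control library, and both levels were alike at 12 h and 24 h. The ratio of means was 2.76 at 12 h and the log2 difference 1.39 ± 0.10 (SE, n = 2 per group), on the log2(FPKM + 0.5) scale used throughout. Each SE of a log2 difference rests on a spread estimate per gene that all 4 groups share. It is therefore the same at 12 h and 24 h and is not the spread of the compared groups alone. At 24 h the log2 difference was 1.37 ± 0.10.

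Dusp5 (ENSMUSG00000034765, chromosome 19, 53529109 to 53542431), which encodes an ERK phosphatase of the nucleus, had 8.46 and 7.66 FPKM in control and 13.8 and 15.1 with MPC EVs at 12 h. At 24 h it had 6.32 and 5.23 FPKM in control and 14.5 and 14.6 with MPC EVs. The groups did not overlap at either time, and the control libraries were lower at 24 h. The log2 difference was 0.81 ± 0.11 at 12 h and 1.26 ± 0.11 at 24 h. An antisense gene on the other strand shares 547 exon bases with Dusp5, and the libraries were not strand-specific.

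Dusp4 (ENSMUSG00000031530, chromosome 8, 34807297 to 34819894) encodes MKP-2, a nuclear phosphatase of ERK and JNK, and was the most abundant of the 10. Its values were 32.2 and 37.0 FPKM in control and 36.3 and 41.2 with MPC EVs at 12 h, which overlap. At 24 h they were 39.7 and 43.0 FPKM in control and 55.8 and 52.3 with MPC EVs, which do not. The log2 difference was 0.16 ± 0.10 at 12 h and 0.38 ± 0.10 at 24 h, so the phosphatase with the highest level had the smallest relative difference of the 3.

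**Figure D1:**
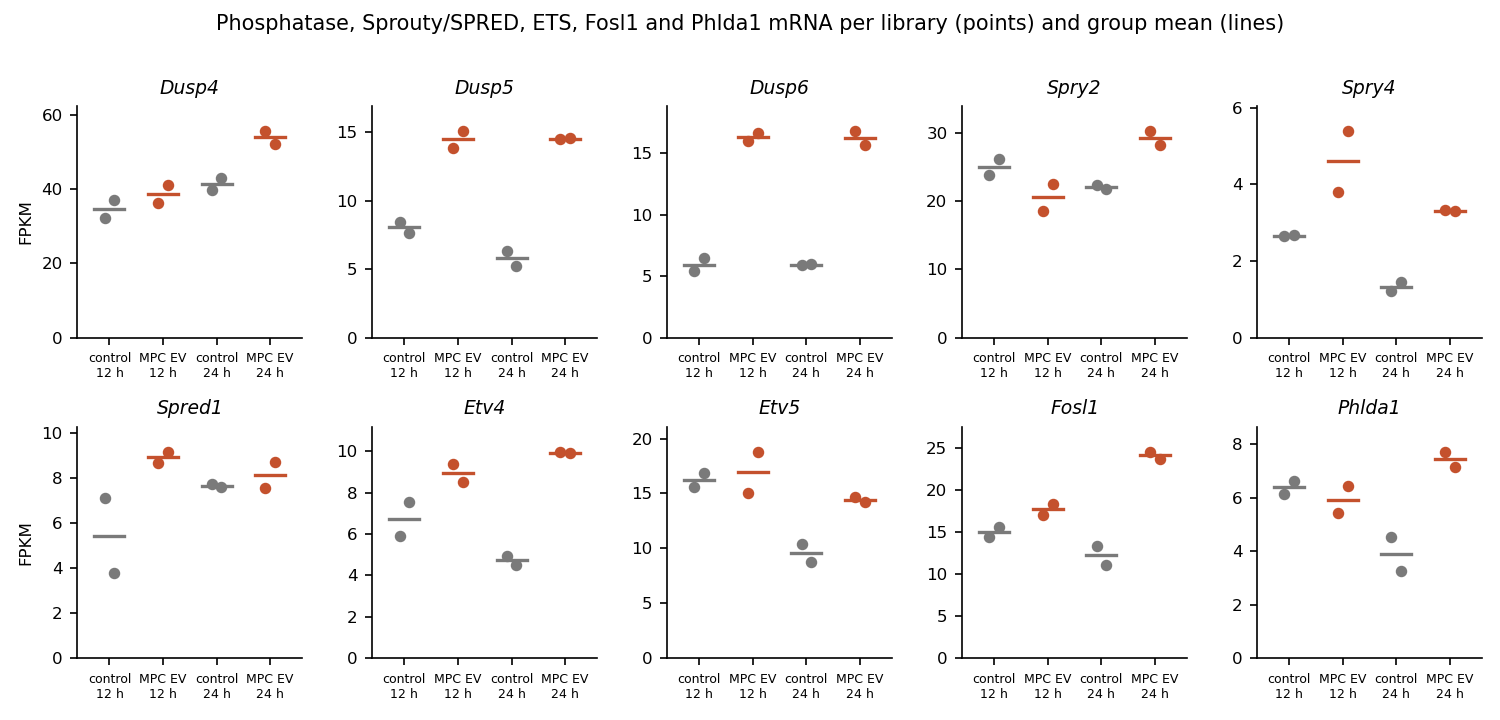
FPKM (vertical axis, from 0, a separate scale per gene) of the 10 genes in each of the 8 libraries (points, grey for control and red for MPC EV) with the mean of each group (line). Dusp6 lies between 5.40 and 6.45 FPKM in all 4 control libraries and between 15.7 and 16.8 FPKM in all 4 MPC EV libraries, while the groups of Dusp4, Etv5 and Phlda1 overlap at 12 h and are apart at 24 h.

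Among the inhibitors that act above RAF, Spry4 (ENSMUSG00000024427, chromosome 18, 38586247 to 38601415), a Sprouty protein gene, was the least abundant member. It had 2.64 and 2.67 FPKM in control and 3.81 and 5.40 with MPC EVs at 12 h, and 1.21 and 1.46 in control and 3.33 and 3.31 with MPC EVs at 24 h. Both MPC EV libraries were above both control libraries at each time, and both treatments were lower at 24 h than at 12 h. The log2 difference was 0.68 ± 0.17 at 12 h and 1.06 ± 0.17 at 24 h. The added 0.5 FPKM dampens differences at such low levels: with 0.1 in its place the 24 h difference was 1.26.

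Spry2 (ENSMUSG00000022114, chromosome 14, 105891947 to 105896819), the Sprouty gene with the higher level here, had opposite differences at the 2 times. Its values were 23.8 and 26.2 FPKM in control and 18.6 and 22.5 with MPC EVs at 12 h. At 24 h they were 22.3 and 21.8 FPKM in control and 30.3 and 28.2 with MPC EVs. The MPC EV libraries were the lower pair at 12 h (-0.28 ± 0.10) and the higher pair at 24 h (0.40 ± 0.10). Set against the median tested gene, which had a log2 difference of -0.12 at 12 h, the 12 h value of Spry2 was -0.16.

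Spred1 (ENSMUSG00000027351, chromosome 2, 117121374 to 117182279), which encodes a protein that brings the RAS-inactivating neurofibromin to the membrane, had no separation at 24 h. Its values there were 7.72 and 7.58 FPKM in control and 7.55 and 8.70 with MPC EVs. At 12 h they were 7.10 and 3.78 FPKM in control and 8.65 and 9.15 with MPC EVs, and the lowest of all 8 values came from control 12 h replicate 2. The longest Spred1 transcript has 6016 bases and 41.2% GC, the lowest GC content of the 10 genes; the part of length and GC in its value there was not tested. The log2 difference at 12 h was 0.72 ± 0.25 with that library and 0.31 without it, against 0.08 ± 0.25 at 24 h. The SE at 24 h also draws on control 12 h replicate 2, because all 4 groups share the spread estimate.

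Of the ETS factors, Etv4 (ENSMUSG00000017724, chromosome 11, 101769742 to 101785371) had 5.88 and 7.53 FPKM in control and 9.38 and 8.49 with MPC EVs at 12 h, and 4.96 and 4.49 in control and 9.98 and 9.89 with MPC EVs at 24 h. Both MPC EV libraries were above both controls at each time, by a log2 difference of 0.40 ± 0.13 at 12 h and 1.00 ± 0.13 at 24 h. Its close relative Etv5 (ENSMUSG00000013089, chromosome 16, 22381309 to 22439719) was the more abundant, with 15.6 and 16.8 FPKM in control and 15.0 and 18.8 with MPC EVs at 12 h. The 12 h groups overlapped (0.05 ± 0.13). At 24 h Etv5 had 10.4 and 8.77 FPKM in control and 14.7 and 14.2 with MPC EVs, a log2 difference of 0.57 ± 0.13. Both treatments were lower at 24 h than at 12 h, and control was lower by more.

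Fosl1 (ENSMUSG00000024912, chromosome 19, 5447547 to 5455946) had 14.4 and 15.6 FPKM in control and 17.1 and 18.3 with MPC EVs at 12 h, and 13.4 and 11.1 in control and 24.6 and 23.7 with MPC EVs at 24 h. The groups did not overlap at either time, and the log2 difference was 0.23 ± 0.10 at 12 h and 0.95 ± 0.10 at 24 h. The gene shares 1163 exon bases with Ccdc85b on the opposite strand, so fragments from the pair cannot be told apart there. Ccdc85b measured 53.9 ± 2.93 FPKM in control and 42.4 ± 0.149 with MPC EVs at 12 h, and 43.1 ± 3.41 and 43.4 ± 2.37 FPKM at 24 h (SD, n = 2). The part of this gene in the Fosl1 values was not tested.

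Phlda1 (ENSMUSG00000020205, chromosome 10, 111506286 to 111508645), which encodes a pleckstrin-homology-like protein, had 6.16 and 6.62 FPKM in control and 5.42 and 6.43 with MPC EVs at 12 h. At 24 h it had 4.56 and 3.25 FPKM in control and 7.73 and 7.16 with MPC EVs. The groups overlapped at 12 h (-0.10 ± 0.16, and 0.02 with median-ratio scaling) and were apart at 24 h (0.87 ± 0.16). A non-coding gene on the other strand shares 727 exon bases with Phlda1, and its highest level in any library was 0.0 FPKM.

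Counted over the 10 genes, both MPC EV libraries were above both control libraries for 6 genes at 12 h, where 17.1% of the 10981 tested genes were so placed. At 24 h this held for 9 genes (23.7% of tested genes), all but Spred1. At 12 h both were below for 1 gene, Spry2, a placement that 45.0% of tested genes had. Because the genes were chosen with these differences known, nothing is read from the counts. The median log2 difference of the 10 was 0.31 at 12 h and 0.91 at 24 h, against -0.12 and -0.03 over all tested genes.

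**Figure D2:**
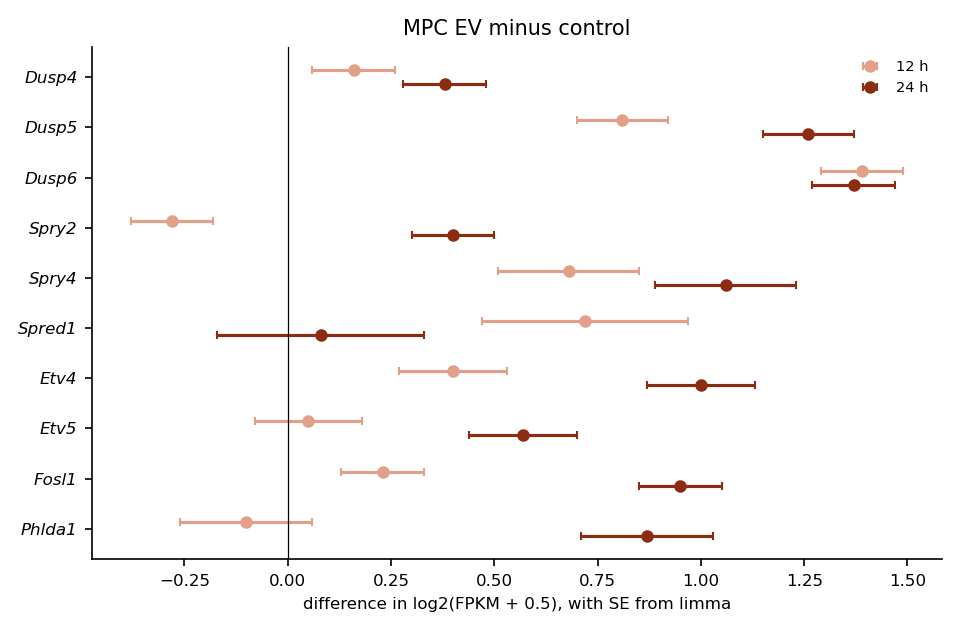
Difference between MPC EV and control in log2(FPKM + 0.5) for each of the 10 genes at 12 h (light) and 24 h (dark). Bars are the SE from limma, with 2 libraries per group and a spread estimate per gene shared by all 4 groups. Dusp6 has nearly equal values of 1.39 and 1.37, Spred1 goes from 0.72 to 0.08, and the other 8 genes have the larger value at 24 h.

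The 2 times were next compared within each treatment. In control myotubes, 7 of the 10 genes had both 24 h libraries below both 12 h libraries (30.9% of tested genes), namely Dusp5, Spry2, Spry4, Etv4, Etv5, Fosl1 and Phlda1. Both were above for 2 genes, Dusp4 and Spred1 (27.8%). Log2 differences in control ranged from -0.79 ± 0.17 for Spry4 and -0.73 ± 0.13 for Etv5 to 0.26 ± 0.10 for Dusp4 and 0.51 ± 0.25 for Spred1. The value of Spred1 was 0.10 without control 12 h replicate 2. With MPC EVs, 5 genes had both 24 h libraries above both 12 h libraries (47.1% of tested genes): Dusp4, Spry2, Etv4, Fosl1 and Phlda1. The log2 differences were 0.50 ± 0.10 for Spry2, 0.48 ± 0.10 for Dusp4, 0.44 ± 0.10 for Fosl1, 0.31 ± 0.16 for Phlda1 and 0.15 ± 0.13 for Etv4. Only Spry4 and Etv5 of the 10 had both 24 h libraries below both 12 h libraries with MPC EVs (23.6% of tested genes). These comparisons share their libraries with those between treatments and are not further evidence for them.

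**Figure D3:**
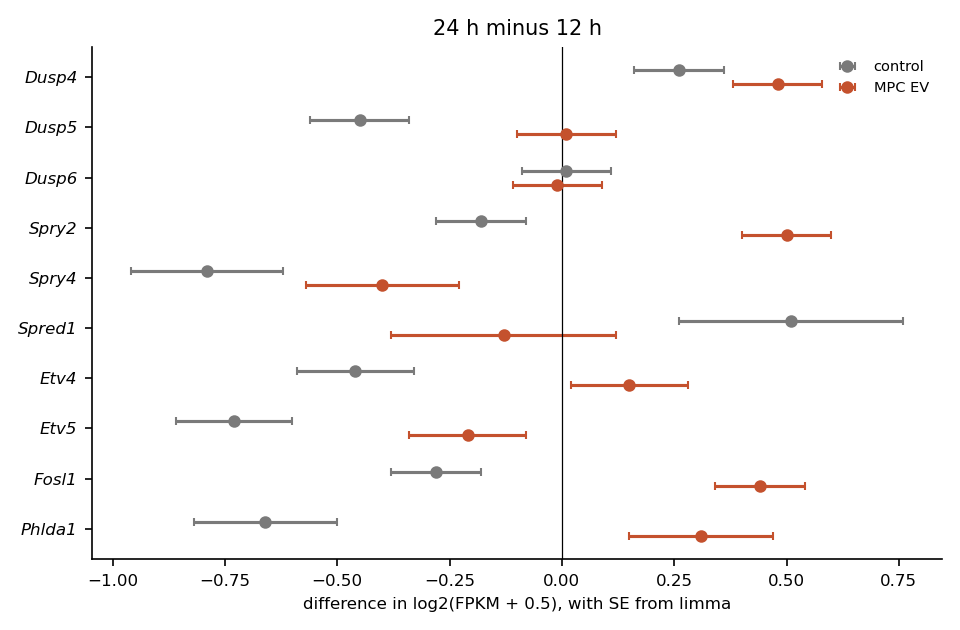
Difference between 24 h and 12 h in log2(FPKM + 0.5) for each of the 10 genes in control (grey) and MPC EV (red) myotubes. Bars are the SE from limma, with 2 libraries per group and a spread estimate per gene shared by all 4 groups. Spry2, Etv4, Fosl1 and Phlda1 have negative values in control and positive values with MPC EVs, and Dusp6 is near 0 in both.

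FPKM is a value per gene length, so levels can be ranked between genes. In control at 12 h the order of mean FPKM was Dusp4 (34.6), Spry2 (24.98), Etv5 (16.2), Fosl1 (15.0), Dusp5 (8.06), Etv4 (6.71), Phlda1 (6.39), Dusp6 (5.93), Spred1 (5.44) and Spry4 (2.66). The libraries of Etv4, Phlda1, Dusp6 and Spred1 overlapped in that group. With MPC EVs at 24 h, Dusp4 (54.0), Spry2 (29.3) and Fosl1 (24.1) led, followed by Dusp6 (16.2), Dusp5 (14.5), Etv5 (14.4), Etv4 (9.93), Spred1 (8.12), Phlda1 (7.45) and Spry4 (3.32). Dusp5 and Etv5 overlapped there, as did Spred1 and Phlda1. Dusp6 thus stood in the eighth place in control at 12 h and in the fourth with MPC EVs at 24 h. These 2 groups differ in both treatment and time, so the shift in place does not belong to the treatment alone.

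Genes of the same families and of the pathway were read from 10 lists holding 116 genes, none of them among the 10, of which 95 were tested. The lists were chosen with earlier results of these data known, so their counts, medians and p-values are not independent support. With limma and Benjamini-Hochberg adjustment over all tested genes at 0.05, 11 rose and 16 fell with MPC EVs at 12 h, and at 24 h, 5 rose and 3 fell (4.36% and 14.3%, then 2.61% and 0.956%, of all tested genes). Their median log2 difference was 0.00 at 12 h and 0.04 at 24 h. Leaving out control 12 h replicate 2 gave 13 that rose and 13 that fell at 12 h, and 13 and 7 at 24 h. With median-ratio scaling, under which the median tested gene moved from -0.12 to 0.01, 15 rose and 9 fell at 12 h.

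Of the 7 other MAP kinase phosphatase genes, 1 rose and 2 fell at 12 h (4.36% and 14.3% of all tested genes). At 24 h 1 rose (2.61% of all tested genes). The medians were -0.12 and 0.06. Dusp9, which encodes an ERK phosphatase, had 11.5 and 12.5 FPKM in control and 5.98 and 5.87 with MPC EVs at 12 h, and fell by 0.96 on the log2 scale (adjusted p = 0.00716). At 24 h it was at 4.57 and 5.37 FPKM in control and 5.60 and 4.78 with MPC EVs. Dusp8, a phosphatase gene for JNK and p38, fell by 0.48 at 12 h (adjusted p = 0.0275), and Dusp16, of similar specificity, rose by 0.40 ± 0.10 (adjusted p = 0.0431). Dusp2, a nuclear phosphatase gene, rose at 24 h from 0.879 and 0.980 to 2.80 and 2.24 FPKM (1.07 ± 0.18, adjusted p = 0.0341), a call that was lost on recovered fragments. The other 4 did not pass at 12 h, nor the other 6 at 24 h, and with median-ratio scaling 2 rose and 1 fell at 12 h.

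Of 7 other feedback inhibitor genes 5 were tested. Of these, 2 rose at 12 h and 1 at 24 h (4.36% and 2.61% of all tested genes). None fell (14.3% and 0.956% of all tested genes), and the medians of the 5 were 0.27 and 0.42. Spry1, a Sprouty gene known for its part in the quiescence of muscle stem cells, had 5.95 and 5.47 FPKM in control and 15.9 and 13.4 with MPC EVs at 12 h, and rose (1.28 ± 0.12, adjusted p = 0.00391). At 24 h all its libraries were lower, with 1.79 and 2.11 FPKM in control and 3.18 and 3.31 with MPC EVs (0.61 ± 0.12, adjusted p = 0.0539). Errfi1, which encodes an inhibitor of the EGF receptor, had 22.9 and 25.8 FPKM in control and 39.5 and 45.4 with MPC EVs at 12 h, and 21.0 and 19.96 in control and 46.5 and 42.8 with MPC EVs at 24 h. It rose at both times (0.79 ± 0.10, adjusted p = 0.00733, and 1.11 ± 0.10, adjusted p = 0.00413). Spred2 and Spred3, the relatives of Spred1, had log2 differences of -0.12 and 0.07 at 12 h and 0.07 and 0.23 at 24 h and did not pass.

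Of 15 other ETS factor genes 13 were tested. At 12 h none rose and 2 fell (4.36% and 14.3% of all tested genes), and none passed at 24 h. With median-ratio scaling 1 rose and 1 fell at 12 h. Ets2 fell by 0.46 (adjusted p = 0.0202) and Elf2 by 0.30 (adjusted p = 0.0276) at 12 h. Etv1, the closest relative of Etv4 and Etv5, was near 1 FPKM, with log2 differences of 0.34 and 0.75 that did not pass (adjusted p = 0.318 and 0.200). Of 6 AP-1 genes besides Fosl1 5 were tested. Junb alone passed, and it fell at both times (14.3% and 0.956% of all tested genes fell at 12 h and 24 h). It had 86.0 and 83.7 FPKM in control and 25.8 and 33.8 with MPC EVs at 12 h, and 31.4 and 29.9 in control and 17.2 and 20.1 with MPC EVs at 24 h. Junb fell by 1.51 at 12 h (adjusted p = 0.00372) and by 0.70 at 24 h (adjusted p = 0.0499), while Fosl1, its possible dimer partner, was higher with MPC EVs at both times. Phlda3, a relative of Phlda1 known as a p53 target, fell by 0.49 at 12 h (adjusted p = 0.00793) and had a log2 difference of 0.00 at 24 h.

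Of 9 tested genes otherwise known as ERK outputs, 1 rose and 2 fell at 12 h (4.36% and 14.3% of all tested genes). At 24 h 2 rose (2.61% of all tested genes). Medians were 0.04 and 0.25. Ccnd1, which encodes cyclin D1, had 71.4 and 81.5 FPKM in control and 74.0 and 82.7 with MPC EVs at 12 h, and 51.3 and 45.8 in control and 87.4 and 86.5 with MPC EVs at 24 h. It rose at 24 h (0.84 ± 0.10, adjusted p = 0.0103), with the control libraries lower at 24 h than at 12 h, as for Etv5 and Phlda1. Ier3, an early response gene, rose at 24 h from 3.63 and 3.42 to 6.93 and 6.83 FPKM (0.88 ± 0.11, adjusted p = 0.0149). Emp1, an epithelial membrane protein gene, rose at 12 h (0.75 ± 0.09, adjusted p = 0.00638), and Ier2 and Myc fell by 0.33 and 0.47 (adjusted p = 0.0294 and 0.0355). With median-ratio scaling neither Ier2 nor Myc passed, with log2 differences of -0.20 and -0.33. Egr1, a gene often induced within an hour of ERK activation, had log2 differences of -0.12 and -0.09 and did not pass.

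**Figure D4:**
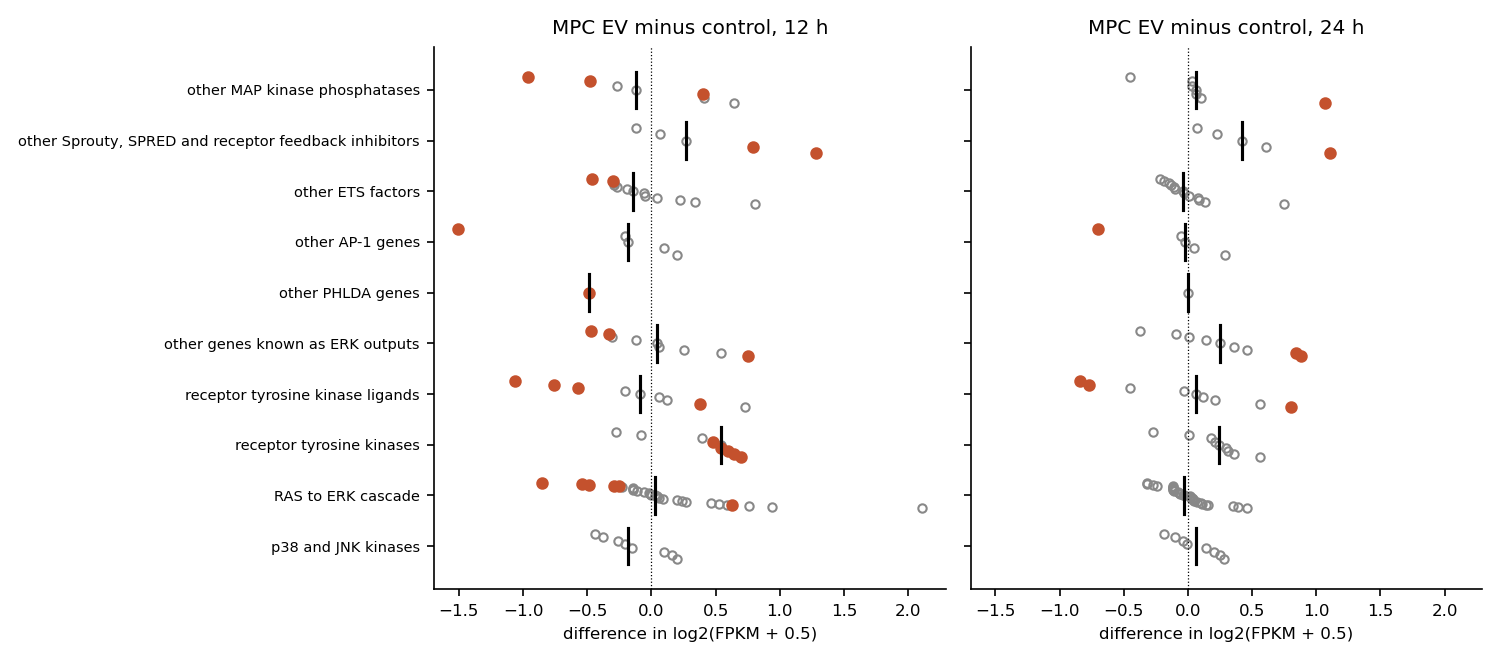
Difference between MPC EV and control in log2(FPKM + 0.5) of the 95 tested genes of the 10 pathway lists at 12 h (left) and 24 h (right); filled points passed an adjusted p of 0.05 in limma, open points did not, and black bars are list medians. The receptor tyrosine kinases have the highest median at 12 h (0.54), and the p38 and JNK kinases have no filled point at either time.

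Upstream of the cascade, 9 of 17 ligand genes and 9 of 13 receptor genes were tested. Among the ligands, 1 rose and 3 fell at 12 h (4.36% and 14.3% of all tested genes). At 24 h 1 rose and 2 fell (2.61% and 0.956% of all tested genes). The medians were -0.09 and 0.06. Hbegf, which encodes a ligand of the EGF receptor, had 8.998 and 8.28 FPKM in control and 10.8 and 12.1 with MPC EVs at 12 h, and 4.88 and 5.20 in control and 8.67 and 9.68 with MPC EVs at 24 h. It rose at both times (0.38 ± 0.10, adjusted p = 0.0462, and 0.80 ± 0.10, adjusted p = 0.0141), the first not without control 12 h replicate 2 (adjusted p = 0.0974). Of the 3 platelet-derived growth factor genes 2 fell, Pdgfc by 1.06 and 0.84 (adjusted p = 0.00873 and 0.0340) and Pdgfb by 0.76 and 0.77 (adjusted p = 0.0192 and 0.0417) at 12 h and 24 h. Pdgfa had log2 differences of -0.21 and 0.21 and did not pass. Nrg1, the neuregulin gene, fell by 0.57 at 12 h (adjusted p = 0.0463).

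Of the 9 receptor genes, 5 rose and none fell at 12 h (4.36% and 14.3% of all tested genes), with a median of 0.54. The other 4 did not pass, among them Fgfr1 (-0.28) and Fgfrl1 (-0.08), both with negative log2 differences. Erbb3, a neuregulin receptor gene, had 32.6 and 41.6 FPKM in control and 59.2 and 60.7 with MPC EVs (0.70 ± 0.11, adjusted p = 0.0141). The genes of its partner Erbb2 (0.64 ± 0.14, adjusted p = 0.0295), of the insulin receptor Insr (0.48 ± 0.09, adjusted p = 0.0240) and of Fgfr3 (0.54 ± 0.11, adjusted p = 0.0243) also rose. None of the 9 passed at 24 h, where the median was 0.24 and Erbb3 had 0.56 ± 0.11 (adjusted p = 0.0526). Without control 12 h replicate 2, 2 passed at 24 h.

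The 29 genes of the list running from receptor adaptors to ERK and its RSK kinases were all tested. At 12 h, 1 rose and 5 fell, near the shares of all tested genes (4.36% and 14.3%). None was past the threshold at 24 h. The medians were 0.03 and -0.03. Mras, a RAS-related gene, fell by 0.85 (adjusted p = 0.00596), Mapk3, which encodes ERK1, by 0.54 (adjusted p = 0.0120), Rras by 0.49 (adjusted p = 0.0132) and the adaptor gene Grb2 by 0.29 (adjusted p = 0.0331). Grb2 did not pass without control 12 h replicate 2 (adjusted p = 0.0541). With median-ratio scaling 2 of the 29 rose and 3 fell. Mapk3 had 41.8 and 44.0 FPKM in control and 28.6 and 30.2 with MPC EVs. Map2k1 and Map2k2, which encode the MEK kinases, had log2 differences between -0.06 and 0.04 at both times. None of 8 tested p38 and JNK kinase genes passed, with medians of -0.18 and 0.06.

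The number of pathway genes past the threshold changed when single libraries were left out. This also leaves fewer libraries to estimate the spread, and the part of each was not tested. At 12 h, 27 passed in all; the number was 49 without control 12 h replicate 1, 26 without control 12 h replicate 2, 6 without either MPC EV 12 h library, and 11 or 12 without any 1 of the 24 h libraries. At 24 h, 8 passed; the number was 20 without either control 12 h library, 6 without either MPC EV 12 h library, 0 without either control 24 h library or without MPC EV 24 h replicate 1, and 1 without MPC EV 24 h replicate 2. Fitted to the libraries of 1 time, none passed at 12 h and 18 at 24 h. Spry1, Emp1, Junb and Pdgfc at 12 h passed in 15 of 16 other settings each, Errfi1 in 14 at 12 h and 13 at 24 h, and Nrg1 in 3 of 15. Of the 32 calls of named pathway genes, 11 passed in fewer than 0.5 of the other settings: Dusp16, Elf2, Erbb2, Fgfr3, Grb2, Myc, Nrg1 and Hbegf at 12 h, and Dusp2, Junb and Pdgfb at 24 h.

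**Figure D5:**
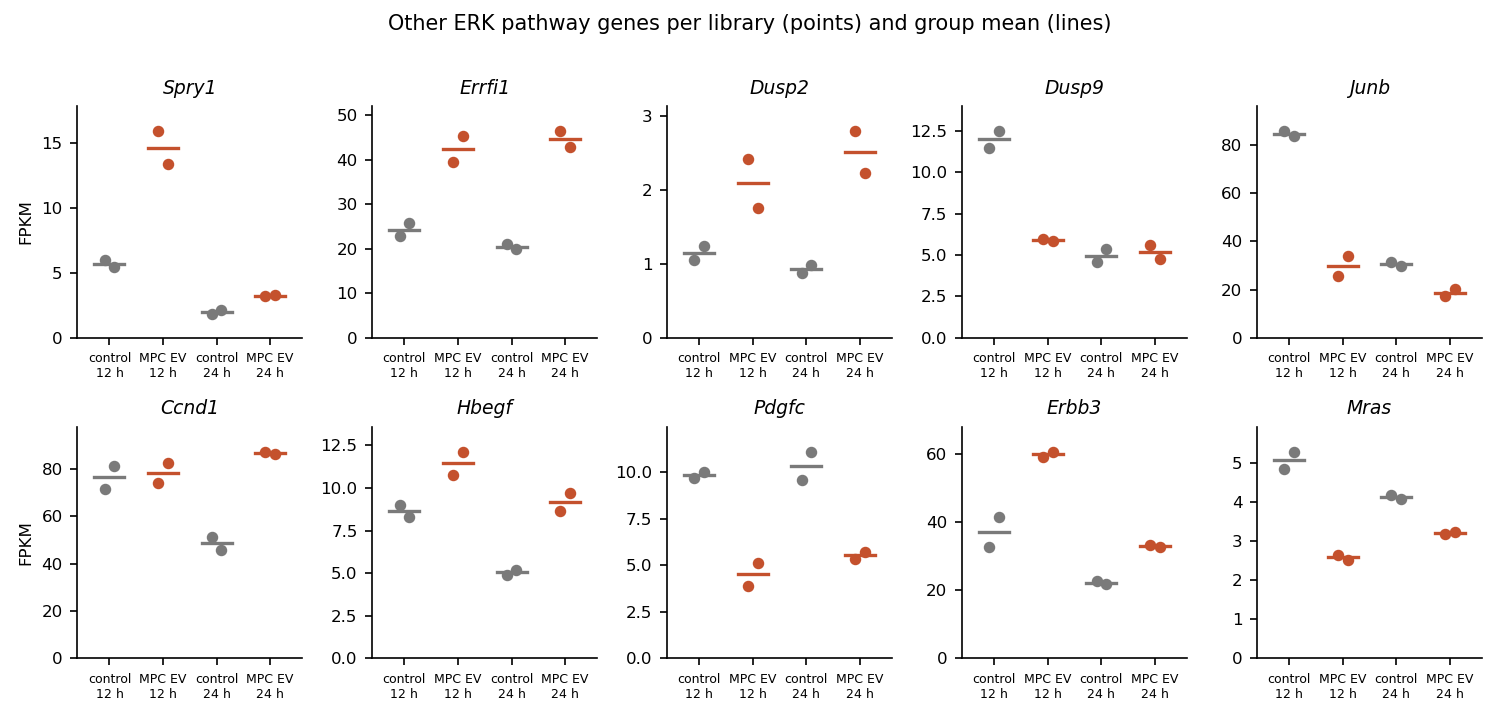
FPKM (vertical axis, from 0, a separate scale per gene) of 10 other pathway genes in each library (points, grey for control and red for MPC EV) with the mean of each group (line). Spry1 and Errfi1 are higher with MPC EVs at 12 h, Junb and Pdgfc are lower, and Ccnd1 is apart only at 24 h.

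The profile of Dusp6 over the 8 libraries was compared with that of 9321 other genes of at least 2 FPKM by the root mean square difference of centred log2 values. This is a description of likeness over 8 libraries that share 4 groups. The nearest was Sema3b, a semaphorin gene, at 0.149, with 10.6 and 10.9 FPKM in control and 23.3 and 22.8 with MPC EVs at 12 h, and 9.95 and 10.5 and then 24.2 and 23.0 at 24 h. It was followed by Ankrd23, a muscle ankyrin repeat gene (0.207), Dock8 (0.223), Irs1, which encodes an insulin receptor substrate (0.240), and Errfi1 (0.241). Among the other 9 members the nearest to Dusp6 were Dusp5 (0.267) and Etv4 (0.391), and the farthest were Etv5 (0.610) and Spry2 (0.692).

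No gene passed the test of whether the MPC EV effect differed between 12 h and 24 h, in limma on FPKM or on recovered fragments (0 of 10981 and 0 of 10974), while 2014 and 2016 had an unadjusted p under 0.05. Without control 12 h replicate 1, 3668 genes passed, and without control 12 h replicate 2, 3 did. As a description, the difference of the 2 effects was largest for Phlda1 (0.97 ± 0.23 on the log2 scale), Fosl1 (0.72 ± 0.14) and Spry2 (0.68 ± 0.15) and closest to 0 for Dusp6 (-0.02 ± 0.14).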

How the data were processed

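RNA of 8 myotube libraries was sequenced as non-strand-specific paired ends, per the labels' protocols. The authors deposited FPKM values, with 1 column per library. HISAT2, DESeq2 (listed with version 2) and the mm10 build are named, per the submitters' processing notes. The sources used here do not state the annotation, the counting tool or any scaling between libraries.

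Symbols and positions came from GENCODE vM21 (34490 of 35275 IDs matched). Each library's total was found from the steps of low FPKM values. Within 0.01, whole fragment numbers then resulted in all libraries for 10974 of 10981 tested genes (99.9%). A gene was tested if it averaged 1 FPKM or more over the 8 libraries. The test was limma 3.58.1 (R 4.3.3), run on log2(FPKM + 0.5) (means of 4 groups, 4 residual degrees of freedom, variance trend, two-sided, Benjamini-Hochberg over all tested genes, threshold 0.05). The limma fit, but not the other steps, was tested on simulated data in which all libraries of a gene varied alike. Tables and figures used Python 3.11.15.

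The members and gene lists were chosen with earlier results of these data known. Named are all 10 members, from each list the 4 lowest adjusted p past the threshold in each treatment comparison, and the 5 genes nearest Dusp6. Etv1, Egr1, Map2k1, Map2k2, Spred2, Spred3, Pdgfa, Pdgfra, Fgfr1, Fgfrl1 and Ccdc85b were named after their values were seen. Spry3 is not analysed here. Alternatives were other pseudocounts (0.1 and 1), filters (none, and 5 FPKM), median-ratio scaling, the replicate number as a term, single-time fits and each library left out. A limma voom fit to the recovered fragments was chosen after seeing the data.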

Additional observations from a re-analysis of the deposited data

Results flagged for a closer look

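In 4 of the 10 genes the control libraries at 24 h were both below those at 12 h while the MPC EV libraries at 24 h were both above those at 12 h. These were Phlda1, Fosl1, Spry2 and Etv4, whose effects differed by 0.97, 0.72, 0.68 and 0.60 on the log2 scale between 12 h and 24 h. The median tested gene had a log2 difference of 0.1 over time with MPC EVs. Relative to it, the time differences of the 4 with MPC EVs were 0.21, 0.34, 0.41 and 0.05. The same placement was found in 886 of 10981 tested genes (8.07%). Spry2 also had both MPC EV libraries below both controls at 12 h and above them at 24 h, as had 746 tested genes (6.79%). For these 4, chosen with their values known, the difference is a description and was not tested by itself; no gene passed the limma test of it over all tested genes.

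Of the pathway genes named for passing a treatment comparison, Ccnd1, Mras, Phlda3 and Rras had the same opposite placement over time. Their differences of the effects were 0.80, 0.53, 0.49 and 0.23, with limma adjusted p of 0.114, 0.149, 0.130 and 0.321. Relative to the median tested gene, their time differences with MPC EVs were 0.06, 0.17, 0.18 and 0.01. Ier2 was lower with MPC EVs at 12 h and higher at 24 h in both libraries, with a difference of 0.47 (adjusted p = 0.141). None passed the threshold.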

How the results depend on the processing

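Of 765 recomputed values of the 10 genes, 696 moved by less than the residual SD of the gene and 69 by more. Some differences near 0 changed sign between settings. Among them, Etv5 at 12 h ranged from -0.10 to 0.21, Phlda1 at 12 h from -0.22 to 0.02 and Spred1 at 24 h from -0.02 to 0.17. The 12 h difference of Spred1 ranged from 0.31 to 1.14. Of 507 recomputed calls of named pathway genes, 327 stayed past the threshold and 180 did not, and none changed direction.

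Over all tested genes, 2045 passed for the treatment at 12 h and 392 at 24 h. With median-ratio scaling 1284 passed at 12 h, and 57.3% of the calls were higher against 23.4% without it. For time with MPC EVs, 70.5% of 2013 calls were higher, and 49.3% of 1655 with that scaling. Fits to 1 time gave 11 genes at 12 h and 763 at 24 h, and no filter gave 225 at 24 h. The cause was not tested. Leaving out each library gave 212 to 5671 genes at 12 h, 27 to 958 at 24 h, 0 to 3668 for the difference of the effects, 525 to 4519 for time in control and 446 to 4176 for time with MPC EVs. Without control 12 h replicate 1, control 12 h replicate 2 is assumed to vary like the other groups.

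With the replicate number as a block, 1114 genes passed at 12 h and 183 at 24 h. The labels do not say whether these numbers pair the libraries. Replicate differences of 2 groups correlated across genes between -0.613 and 0.241, which cannot settle it.

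Precision is limited by the 2 libraries per group and by depth, with at least 109 fragments for each of the 10 genes in a library.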

Other observations

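Among the pathway genes too low to be tested were 4 ligand genes of the EGF receptor family, named after their values were seen. Ereg, the epiregulin gene, had 0.607 and 0.536 FPKM in control and 1.47 and 1.23 with MPC EVs at 12 h, and 0.540 and 0.599 in control and 1.14 and 1.14 with MPC EVs at 24 h. Tgfa had 0.189 and 0.274 FPKM and then 0.587 and 0.490 at 12 h, and 0.276 and 0.246 and then 0.666 and 0.578 at 24 h. Btc, the betacellulin gene, had 0.186 and 0.0701 FPKM and then 0.522 and 0.493 at 12 h, and 0.0529 and 0.138 and then 0.213 and 0.387 at 24 h. Egf had 0.393 and 0.265 FPKM and then 0.291 and 0.195 at 12 h, and 0.160 and 0.250 and then 0.167 and 0.234 at 24 h. For Ereg, Tgfa and Btc both MPC EV libraries were above both control libraries at each time, and for Egf the groups overlapped at both. Of the tested genes, 17.1% were so placed above control at 12 h and 23.7% at 24 h. Because these 4 were picked with their values known, nothing is read from the placement. The values rest on 44 to 105 fragments for Ereg, 15 to 46 for Tgfa, 3 to 26 for Btc and 13 to 35 for Egf.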
